A study of Dascyllus aruanus with 17 samples.

Results

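The spliceosome genes of the damselfish brain were described across 4 groups of fish that differed in night lighting and in the hour of sampling. Members were the assembled genes whose deposited annotation carries the KEGG spliceosome pathway, leaving out genes named SMU1 and heat shock genes with names starting HSP. Of 21805 features in the count table, 151 carry the pathway, 2 of these were left out by name (HSPA1L and HSPA8), and 149 are members. The study kept wild Dascyllus aruanus, a small reef fish that lives in coral colonies, with artificial light at night (ALAN), a dim white lamp during the dark phase, or under natural days and nights (control). All fish came from 6 wild colonies, were habituated for 96 h and then treated for 72 h, so that each brain was taken after 3 treated nights. The groups were ALAN night (n = 4) and control night (n = 4), both taken at zeitgeber time (ZT) 23, shortly before sunrise, and ALAN day (n = 3) and control day (n = 3), both taken at ZT11, shortly before sunset. Replicates of the control day group are numbered 1, 2 and 4. Each library held the messenger RNA of 1 whole brain, so a level here is an average over all brain cell types, and fewer cells of a type and less RNA per cell cannot be told apart. The labels do not say which colony a brain came from, nor the age or sex of the fish. Light was applied to colonies, so brains of a group may share a colony, and p-values treat each brain as independent.

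The spliceosome is the machine in the nucleus that cuts introns out of newly made transcripts and joins the exons. It is built anew on each intron from small nuclear ribonucleoproteins (snRNPs), each a small RNA wrapped by a ring of Sm or LSm proteins with further proteins bound. U1 recognises the start of the intron and U2 its branch site, after which the U4/U6.U5 tri-snRNP joins and RNA helicases and the PRP19 complex rearrange the assembly for the cutting steps. SR proteins and heterogeneous nuclear ribonucleoproteins (hnRNPs) bind the transcript and steer which splice sites are used, the SR proteins mostly in favour of an exon and many hnRNPs against it. The exon junction complex and export factors mark and carry the spliced product. Brain is a tissue in which alternative splicing is especially common, and in mice some splicing regulators are known to follow a daily cycle.

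The members hold 108 distinct gene names, and 30 of these names stand on more than 1 feature, for 67 features in all. Such features can be gene copies, which are frequent in bony fishes, or pieces of 1 gene that the de novo assembly left apart, and reads may have been divided between them, so they carry their component number (for example SRSF1 DN19046) and their separate levels are uncertain. A further 4 members have no name. Symbols are those of the best annotation match. By name, 135 of the 149 members matched a list of known spliceosome and splicing proteins sorted by role. Names and pathway come from the same annotation, so this match is not an independent check of the pathway label. The 14 others are in no role list and include the unnamed features and names such as PQBP1, CCDC12 and DAZAP1. Among them are also B3GALTL, a sugar transferase on 2 features, SLC30A7, a zinc transporter, and SAMHD1, annotated as a deoxynucleoside triphosphate triphosphohydrolase. B3GALTL, SLC30A7 and SAMHD1 are not splicing proteins by name and are kept because the rule takes them.

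Total expected counts ran from 14942952 to 23051193 per library. The control day libraries had the lowest totals, at 14942952, 17862362 and 17362195. The next lowest was ALAN night replicate 1, at 17941030. The part of depth in the comparisons that use control day brains was not tested. A CPM value is the count scaled to a common library total with TMM factors (0.870 to 1.08), and it is not corrected for gene length, so levels are compared between groups and not between genes. The low-count filter kept 147 of the 149 members among 20782 features tested. The 2 removed were an unnamed helicase-like feature, at 0 to 3.35 CPM, and SRSF1 DN26456-c0-g3, at 0 to 1.46 CPM. Libraries also differed in the summed levels of marker lists for photoreceptors (of the eye or the pineal), muscle and glia. The summed level of 34 photoreceptor marker features reached 2267 CPM in 1 control night library. That of 35 muscle marker features ran from 422 to 1490 CPM in control day libraries and reached at most 674 CPM in ALAN day libraries. Several muscle genes were high in control day replicates 1 and 4. TNNT3 had 310 and 281 CPM there, 11.4 CPM in replicate 2, and 7.36 to 87.5 CPM in the other groups. Other muscle markers overlapped, such as PVALB, at 419, 252 and 336 CPM in control day replicates 1, 2 and 4 and 231 to 427 CPM elsewhere. Glial markers (19 features) summed to 5734 to 8236 CPM at night and 5982 to 7233 CPM by day. Neuron and glial markers were thus well detected in every brain. No feature that matched a listed marker name was at 0 in every library. Listed names without a matching feature, such as GFAP, MBP, SNAP25 and NRGN, could not be read. The part of these values in the results below was not tested.

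Most spliceosome transcripts were well covered, and they were about as steady between brains as other features of similar level. Mean levels ran from 0.324 to 1076 CPM over the tested members, with 93 members between 10 and 100 CPM and 41 at 100 CPM or more. The member with the most counts was cirbp, which codes for a cold-inducible RNA-binding protein, at 958, 1080.2, 985 and 941 CPM in the ALAN night brains, 920.3, 1112, 1089.7 and 1069 in the control night brains, 1129.5, 1206 and 1074 in the ALAN day brains, and 1079, 1147 and 1275 in the control day brains. The lowest of these were night brains and the highest day brains, and the night and day ranges overlapped. The spread between brains of 1 group had a median SD of 0.197 on the log2 scale over the members. Over all features tested it was 0.383, and over the 4730 features with levels between the quartiles of the members it was 0.216. The steadiest member was HNRNPA1, with an SD of 0.065, and the widest was CTNNBL1 DN32015, with an SD of 2.18 at a mean of 7.01 CPM.

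To ask which splicing genes differ with the time of day, night brains were compared with day brains over both treatments (the mean of the night over day differences in ALAN and in control fish). The only members that passed the test were 3 hnRNP genes, all lower at night: RBMX fell by 23.2%, HNRNPA3 fell by 20.3% and HNRNPA1 fell by 15.0%. They were also the only members in which no night brain overlapped with any day brain. These 3 are 2.04% of the tested members. Over all 20782 features 4.34% passed the same edgeR test (Benjamini-Hochberg adjusted p under 0.05) and 2.11% passed it with lower levels at night, so the share of members called was not above the background. Night and day groups did not overlap in 2.59% of all features.

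RBMX, which codes for an RNA-binding protein of the hnRNP G type that influences splice site choice in mammals, had 143, 109, 130.2 and 124 CPM in the ALAN night brains, 104, 124, 113 and 137 in the control night brains, 149, 169.9 and 162 in the ALAN day brains, and 156, 172 and 152 in the control day brains. Its highest night brain lay below its lowest day brain, and ALAN and control brains overlapped at both times. The night over day log2 fold change was −0.38 (SE 0.082, with an edgeR adjusted p of 0.0168). HNRNPA3, a close relative of HNRNPA1, had 182, 157, 175 and 167 CPM in the ALAN night brains, 162, 181, 177 and 167 in the control night brains, 188, 229 and 205 in the ALAN day brains, and 221, 198 and 245 in the control day brains. The gap between its highest night brain and its lowest day brain was small, and the groups at the same time overlapped (night over day log2 fold change −0.33 with SE 0.072 and edgeR adjusted p 0.0189). HNRNPA1, whose product binds splicing silencers and counters SR proteins in mammals, had 389, 392, 357 and 379.9 CPM in the ALAN night brains, 377, 416, 381 and 399 in the control night brains, 460.1, 476 and 428 in the ALAN day brains, and 435, 455 and 472 in the control day brains. All 8 night brains stood below all 6 day brains (night over day log2 fold change −0.23 with SE 0.056 and edgeR adjusted p 0.0304). RBMX was called in 18 of 20 alternative analyses, HNRNPA3 in 17 and HNRNPA1 in 9, with a log2 fold change below 0 in each. Library totals in place of TMM ended the calls of RBMX (adjusted p 0.0580) and HNRNPA1 (0.172), and a fit with the replicate number as a block called none of the 3. Leaving out 1 brain at a time, RBMX was called in all 14 fits, HNRNPA3 was not called without ALAN day replicate 2 (adjusted p 0.0507) or without control day replicate 4 (0.0561), and HNRNPA1 was not called in 9 of the 14 fits (0.0505 to 0.0849). Leaving out either of these 2 day brains left RBMX as the 1 member called, and leaving out control night replicate 1 gave 5 calls. The summed level of neuron markers was also lower at night by a narrow gap (22 features, none at 0 in every library). It was 2542 to 2863 CPM in the 8 night brains and 2869 to 3222 CPM in the 6 day brains. Only 1 of the 22 features was called by edgeR for night over day over both treatments. A GAD1 feature had 243 to 274 CPM at night and 279 to 331 CPM by day. Most others, such as those of NEFM, STMN2, SYN1 and ELAVL3, overlapped between night and day. The part of the neuron marker level in the hnRNP result was not tested.

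**Figure D1:**
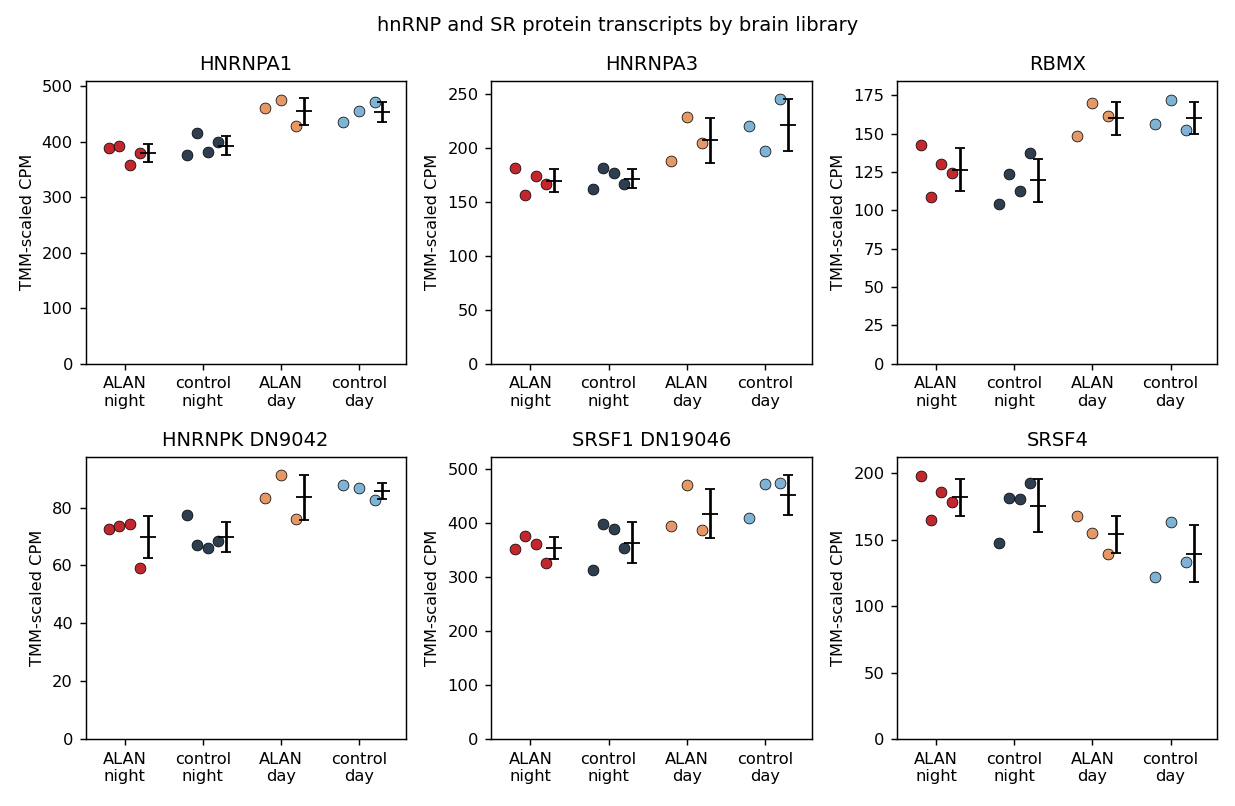
TMM-scaled CPM (linear axis from 0) of 4 hnRNP and 2 SR protein features in each brain; points are brains (n = 4, 4, 3 and 3), and the bar beside them is the group mean with its SD. In HNRNPA1, HNRNPA3 and RBMX every night brain lies below every day brain, whereas HNRNPK DN9042, SRSF1 DN19046 and SRSF4 overlap between night and day.

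The remaining hnRNP genes did not pass the test. HNRNPK DN9042, a KH domain protein that binds C-rich RNA, came closest with 72.6, 73.7, 74.4 and 59.1 CPM in the ALAN night brains, 77.3, 67.1, 66.1 and 68.3 in the control night brains, 83.1, 91.3 and 76.0 in the ALAN day brains, and 87.9, 86.8 and 82.5 in the control day brains. Only the ALAN day brain at 76.0 CPM overlapped with the night brains (night over day log2 fold change −0.28 with SE 0.076 and edgeR adjusted p 0.0557), and DESeq2 called this feature. With the counts of features named HNRNPK summed, the log2 fold change was −0.11 (adjusted p 0.621). Its namesake HNRNPK DN1572 had a log2 fold change of −0.059 (adjusted p 0.877). HNRNPM stood at −0.25 and HNRNPU, a scaffold protein of the nucleus, at −0.12. RALY, a relative of HNRNPC, had a log2 fold change of 1.00 (adjusted p 0.147) at a mean of only 2.36 CPM. Of the 14 hnRNP features 10 had a log2 fold change below 0 and 4 above, with a median of −0.079, against 0.011 over all features, of which 48.2% were below 0. The median of the hnRNP features stayed below 0 in all 19 alternatives, at −0.13 to −0.020, and between 7 and 11 features were below 0.

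SR protein genes differed in both directions, and none passed the edgeR test. SRSF1 DN19046, whose protein promotes the inclusion of exons, had 351, 375, 360.2 and 327 CPM in the ALAN night brains, 313, 397, 389.5 and 354 in the control night brains, 395, 470.1 and 387 in the ALAN day brains, and 409, 471 and 474 in the control day brains. Night brains were the lower ones in both treatments, with a slight overlap between the night and day ranges (night over day log2 fold change −0.28 with SE 0.077 and edgeR adjusted p 0.0595). SRSF4, another SR protein, had 198, 165, 186 and 179 CPM in the ALAN night brains, 147, 181, 181 and 193 in the control night brains, 168, 155 and 139.5 in the ALAN day brains, and 122, 164 and 133 in the control day brains. Here the night brains were the higher ones with overlap (night over day log2 fold change 0.28 with SE 0.089 and edgeR adjusted p 0.0925). DESeq2 called both, in these opposite directions. The feature srsf5 DN8601 had 164, 138, 152 and 137 CPM in the ALAN night brains, 113, 197, 198 and 193 in the control night brains, 144, 121 and 125 in the ALAN day brains, and 135, 105 and 129.8 in the control day brains. The lowest of its night values was control night replicate 1, and without that brain the feature was called, with a log2 fold change of 0.43 (adjusted p 0.0105), against 0.35 (adjusted p 0.148) with it. SRSF3 DN133, an SR protein that also takes part in export, stood at 0.22 (adjusted p 0.253). Over the 17 tested SR features 10 log2 fold changes were above 0 and 7 below, with a median of 0.036 that ran from −0.0090 to 0.098 under the alternatives.

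No gene of the U1, U2, Sm and LSm groups passed the edgeR test. In the Sm and LSm group, whose proteins form the rings around the small nuclear RNAs, SNRPF had 88.2, 93.6, 138 and 104 CPM in the ALAN night brains, 124, 111, 106 and 73.4 in the control night brains, 115, 143 and 125 in the ALAN day brains, and 121, 150.3 and 195 in the control day brains. The night and day ranges overlapped (night over day log2 fold change −0.43 with SE 0.14 and edgeR adjusted p 0.118), and DESeq2 called it. SNRPB, a further Sm ring protein, had a log2 fold change of −0.25 (adjusted p 0.184), and of −0.17 without ALAN day replicate 2. In the U1 group SNRPC, which stabilises the pairing of U1 with the start of the intron, stood at −0.23 (adjusted p 0.348), and at −0.11 without ALAN day replicate 2. Among U2 and branch-site proteins 18 of 24 features had a log2 fold change below 0, with a median of −0.098, and under the alternatives 15 to 19 were below 0, with medians from −0.14 to −0.037. PUF60 DN1028, a factor of splice site recognition, had the smallest p among them (night over day log2 fold change −0.27 with SE 0.096 and edgeR adjusted p 0.152). SF3B1 DN1745, the largest subunit of the branch-site complex SF3b, stood at −0.17 (adjusted p 0.215).

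Genes of the tri-snRNP, which brings the catalytic core, mostly had differences near 0. PRPF8, the core protein at the active site, had 48.1, 47.0, 41.8 and 49.8 CPM in the ALAN night brains, 42.5, 50.7, 39.1 and 37.7 in the control night brains, 46.6, 46.9 and 40.4 in the ALAN day brains, and 45.8, 46.4 and 39.4 in the control day brains. Its 4 groups overlapped, and the night over day log2 fold change was 0.0092 with a 95% interval of −0.18 to 0.20. Of the 16 features 14 had a log2 fold change above 0, but with a median of only 0.031, and under the alternatives the count ran from 9 to 14 and the median from 0.0075 to 0.094. In the helicase and second-step group 10 of 13 features were below 0, with a median of −0.087, and under the alternatives 7 to 11 were below 0, with medians from −0.095 to −0.027. Its lowest p belonged to DDX5 DN1463-c0-g2, one of 2 features of a DEAD-box helicase that also acts in transcription (log2 fold change −0.19 with SE 0.065 and edgeR adjusted p 0.135). In the PRP19 complex PLRG1, a WD repeat protein, stood at −0.49 (adjusted p 0.224). CWC15, the feature of that role with the most counts, had 163, 189.6, 171 and 207 CPM in the ALAN night brains, 151, 188, 164 and 176 in the control night brains, 172, 169.7 and 167 in the ALAN day brains, and 174, 187 and 182 in the control day brains. Its night and day ranges overlapped, and the 95% interval of its night over day log2 fold change was −0.15 to 0.16. The features with the most counts in 4 other roles also had intervals around 0, of −0.24 to 0.25 for ZMAT2 (tri-snRNP), −0.30 to 0.37 for RBM25 DN1844 (U1), −0.26 to 0.33 for SRSF5 DN733 (SR) and −0.16 to 0.15 for ALYREF DN642 (export). In the exon junction, export and cap-binding group THOC2 DN13721, a large subunit of the THO export complex, stood at 0.26 (adjusted p 0.161).

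For most members the comparison over both treatments was narrow enough to limit the size of a change. The 95% interval of the night over day log2 fold change lay within ±0.5 for 105 of the 147 tested members and within ±1 for 136. Over the members 23 had an unadjusted p under 0.05, which is 15.6% and stands against 17.7% of all features, with 16 lower at night (10.9%, against 8.52% of all features) and 7 higher (4.76%, against 9.21%). DESeq2 called 8 members, 7 of them lower at night, where it called 8.67% of the features it gave an adjusted p. Wide intervals were found in members with few reads, such as DN50729, at a mean of 1.13 CPM (interval −3.19 to −0.39), which is described in the annotation as a heat shock cognate and is a member because it has no gene name. Some members with more reads also spread widely between brains of a group. SNRPE had an SD of 0.663 (log2) at a mean of 94.0 CPM, and SF3B1 DN1691 had 0.557 at 160 CPM.

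Next the night and day brains were compared within each treatment. The 2 comparisons share no library. Under ALAN 0 members were called by edgeR, where 1.03% of all features were, with 8 members at an unadjusted p under 0.05 (5.44%, against 11.1% of all features) and 1 call by DESeq2 (HNRNPA1), where DESeq2 called 3.18% of all features. In control fish 0 members were called by edgeR, where 2.07% of all features were, with 17 members at an unadjusted p under 0.05 (11.6%, against 14.6%) and 6 calls by DESeq2, which called 5.3% of all features. These 6 were ALYREF DN1012, DDX5 DN1463-c0-g1, HNRNPA3, RBMX and HNRNPA1, lower at night, and PPIH, higher at night. Members at an unadjusted p under 0.05 in both treatments numbered 5: RBMX, HNRNPA3, HNRNPA1, HNRNPK DN9042 and SRSF1 DN19046, all lower at night. These are 5 of the 147 tested members, where 901 of all 20782 features reached it in both treatments, in either direction. The share of members was thus not above that of all features. The 5 make up 62.5% of the short ALAN list of 8 and 29.4% of the control list of 17. Over all features the shares were 39.1% of the ALAN list and 29.7% of the control list. RBMX had night over day log2 fold changes of −0.34 under ALAN and −0.42 in control fish. HNRNPA3 had −0.29 under ALAN and −0.37 in control fish, and HNRNPA1 had −0.26 under ALAN and −0.21 in control fish.

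The members' directions were then counted in each treatment. Under ALAN 75 of 147 members (51.0%) had lower levels at night, against 49.6% of all features, with a median log2 fold change of −0.0032. In control fish 106 of 147 members (72.1%) had lower levels at night, against 48.4% of all features, with a median of −0.094 where that of all features was 0.015. By role, the features below 0 among U1 proteins were 4 of 10 under ALAN and 9 of 10 in control fish, among U2 proteins 15 of 24 under ALAN and 19 of 24 in control fish, and among Sm and LSm proteins 4 of 9 under ALAN and 7 of 9 in control fish. Among tri-snRNP proteins they were 6 of 16 under ALAN and 8 of 16 in control fish, among helicases and second-step factors 7 of 13 under ALAN and 11 of 13 in control fish, and among PRP19 proteins 7 of 15 under ALAN and 11 of 15 in control fish. Among SR proteins they were 5 of 17 under ALAN and 11 of 17 in control fish, among hnRNP proteins 11 of 14 under ALAN and 10 of 14 in control fish, among export and exon junction proteins 9 of 16 under ALAN and 11 of 16 in control fish, and among the others 7 of 13 under ALAN and 9 of 13 in control fish. Over the alternatives the median took both signs in each role but the SR proteins under ALAN, and in the tri-snRNP proteins alone in control fish. The count in control fish ran from 98 to 109 over 20 alternatives. In the same alternatives the ALAN count ran from 40 to 80, and its low end came with library totals in place of TMM, which moved the median of all features to 0.106. The members share libraries, so these counts are not a test, and a difference between the treatments in this balance was not tested.

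**Figure D2:**
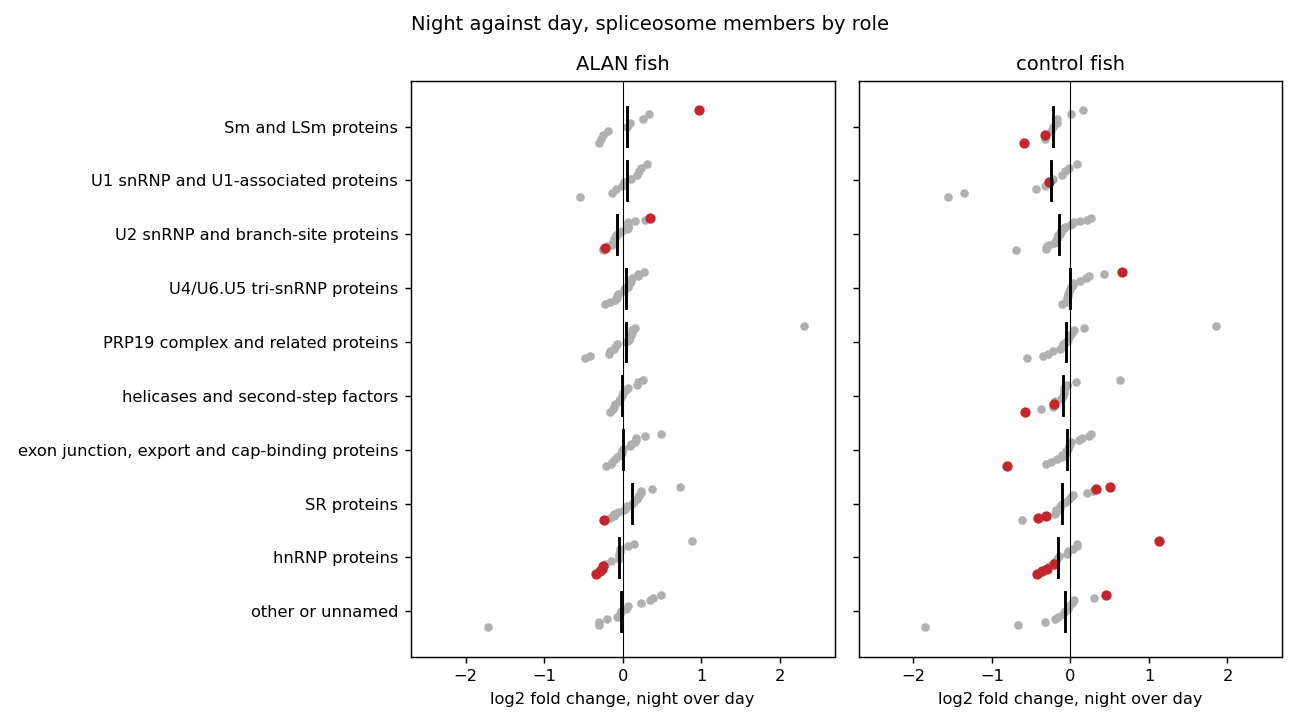
Night over day log2 fold change of the 147 tested members by role (one point per feature), in ALAN fish (left) and control fish (right); red points have an unadjusted p under 0.05, the vertical position within a role follows the rank, and the black bar is the median of the role. The bars lie between −0.070 and 0.12 in ALAN fish and between −0.25 and −0.0017 in control fish, and hnRNP proteins hold 4 red points below 0 in both.

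To ask what artificial light did to these genes at night, ALAN night brains were compared with control night brains. No member was called by edgeR or by DESeq2. Over all features 0.0289% were called by edgeR and 0.198% by DESeq2. An unadjusted p under 0.05 was reached by 2 members (1.36%, against 4.61% of all features), both higher under ALAN, where 2.32% of all features were. ALYREF DN1012, an adaptor that hands spliced transcripts to the export machinery, had 28.0, 27.5, 28.3 and 42.5 CPM in the ALAN night brains, 25.2, 23.7, 16.6 and 25.3 in the control night brains, 26.3, 33.7 and 25.3 in the ALAN day brains, and 45.7, 32.5 and 40.8 in the control day brains. All 4 ALAN night brains stood above all 4 control night brains, with ALAN night replicate 4 well above the rest (ALAN over control at night log2 fold change 0.48 with SE 0.19 and edgeR adjusted p 0.998). The log2 fold change was 0.30 without that brain, and 0.064 with the counts of features named ALYREF summed. SLC30A7, the zinc transporter that carries the pathway label, had 17.7, 37.8, 20.3 and 18.1 CPM in the ALAN night brains, 15.3, 18.9, 16.3 and 15.6 in the control night brains, 18.5, 14.5 and 17.3 in the ALAN day brains, and 14.8, 20.1 and 18.1 in the control day brains. ALAN night replicates 2 and 3 stood above all control night brains, the first by a wide margin, and the other ALAN night brains overlapped with them (ALAN over control at night log2 fold change 0.51 with SE 0.22 and edgeR adjusted p 1.00). Without replicate 2 the log2 fold change was 0.19. PRPF18 DN8781, a second-step factor, was the other feature whose night groups did not overlap, with 53.5, 46.2, 57.2 and 49.0 CPM in ALAN night brains and 43.0, 33.8, 16.2 and 44.5 CPM in control night brains (log2 fold change 0.58 with SE 0.37 and edgeR adjusted p 1.00). The name of PRPF18 DN8781 rests on a low-scoring annotation match (bit score 98.2, against 442 for PRPF18 DN1726), so it is less certain. Night groups without overlap were seen in 1.36% of members and in 2.5% of all features. The 95% interval of the log2 fold change lay within ±0.5 for 100 of 147 members.

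In day brains, taken while the lamps of the dark phase were off, 0 members were called by edgeR or DESeq2, where edgeR called 0.00481% and DESeq2 0.648% of all features. An unadjusted p under 0.05 was reached by 8 members (5.44%, against 6.92% of all features), of which 2 were higher under ALAN (1.36%, against 3.22% of all features) and 6 lower (4.08%, against 3.7%). PPIH, a prolyl isomerase of the U4/U6 particle, had 15.8, 25.3, 20.5 and 20.9 CPM in the ALAN night brains, 24.0, 17.0, 23.9 and 24.8 in the control night brains, 20.0, 22.7 and 23.4 in the ALAN day brains, and 13.5, 16.6 and 12.5 in the control day brains. The control day brains were among the lowest of all, with 1 ALAN night brain in their range, and ALAN day brains lay above them without overlap (ALAN over control by day log2 fold change 0.63 with SE 0.19 and edgeR adjusted p 0.488). DDX5 DN1463-c0-g1 had 304, 179, 231 and 184 CPM in the ALAN night brains, 189.9, 206, 194 and 213 in the control night brains, 214, 223 and 208 in the ALAN day brains, and 292, 281 and 327 in the control day brains. Here the 3 control day brains were high, as was 1 ALAN night brain, and ALAN day brains lay below them without overlap (ALAN over control by day log2 fold change −0.48 with SE 0.16 and edgeR adjusted p 0.536). With the counts of features named DDX5 summed it was −0.23. The ring protein lsm8, which belongs to the LSm ring at the end of U6 RNA, had 35.9, 47.5, 54.2 and 31.5 CPM in the ALAN night brains, 47.1, 44.7, 52.3 and 48.8 in the control night brains, 41.1, 38.8 and 42.3 in the ALAN day brains, and 57.4, 60.5 and 63.7 in the control day brains. Its control day brains were the 3 highest of all 14 (log2 fold change −0.57 with SE 0.17 and edgeR adjusted p 0.461). Besides PPIH, PRPF18 DN8781 was the other of the 2 higher members, with overlap between its day groups. Its ALAN over control log2 fold change by day was 1.02, and 0.35 with the counts of features named PRPF18 summed.

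The Sm protein SNRPE had 89.7, 128, 117 and 58.4 CPM in the ALAN night brains, 161, 61.8, 102 and 92.3 in the control night brains, 20.6, 53.1 and 76.6 in the ALAN day brains, and 105, 75.0 and 174 in the control day brains. Values within each group were wide apart, and the day groups overlapped (ALAN over control by day log2 fold change −1.23 with SE 0.46 and edgeR adjusted p 0.583). In all, 8 of 9 Sm and LSm features had lower levels in ALAN day than in control day brains, with a median log2 fold change of −0.28, against 48.3% of all features below 0. Without control day replicate 4 this median was −0.085, with 7 of the 9 below 0. The median deviation of this role from its mean level was −0.14, −0.077 and −0.050 in the ALAN day brains and 0.20, −0.15 and 0.45 in the control day brains, so the groups overlapped and control day replicate 4 stood highest. By day 14 members had groups that did not overlap (9.52%, against 10.7% of all features), 3 higher under ALAN (2.04%, against 5.33%) and 11 lower (7.48%, against 5.35%). The 11 lower ones were SF3B2, SF3B3 and SF3B4 of the branch-site complex, SRSF7 DN5258, SRSF10 DN7379, SNRPA, lsm8, CWC15, PRPF38B, DDX17 DN2129 and DDX5 DN1463-c0-g1. SF3B4 had 49.2, 41.0 and 33.6 CPM in ALAN day brains and 55.9, 51.1 and 51.9 CPM in control day brains (log2 fold change −0.36 with SE 0.16 and edgeR adjusted p 0.697). The summed liver marker level also did not overlap by day, at 229 to 517 CPM in ALAN day and 601 to 1329 CPM in control day brains, and its part in these differences was not tested.

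**Figure D3:**
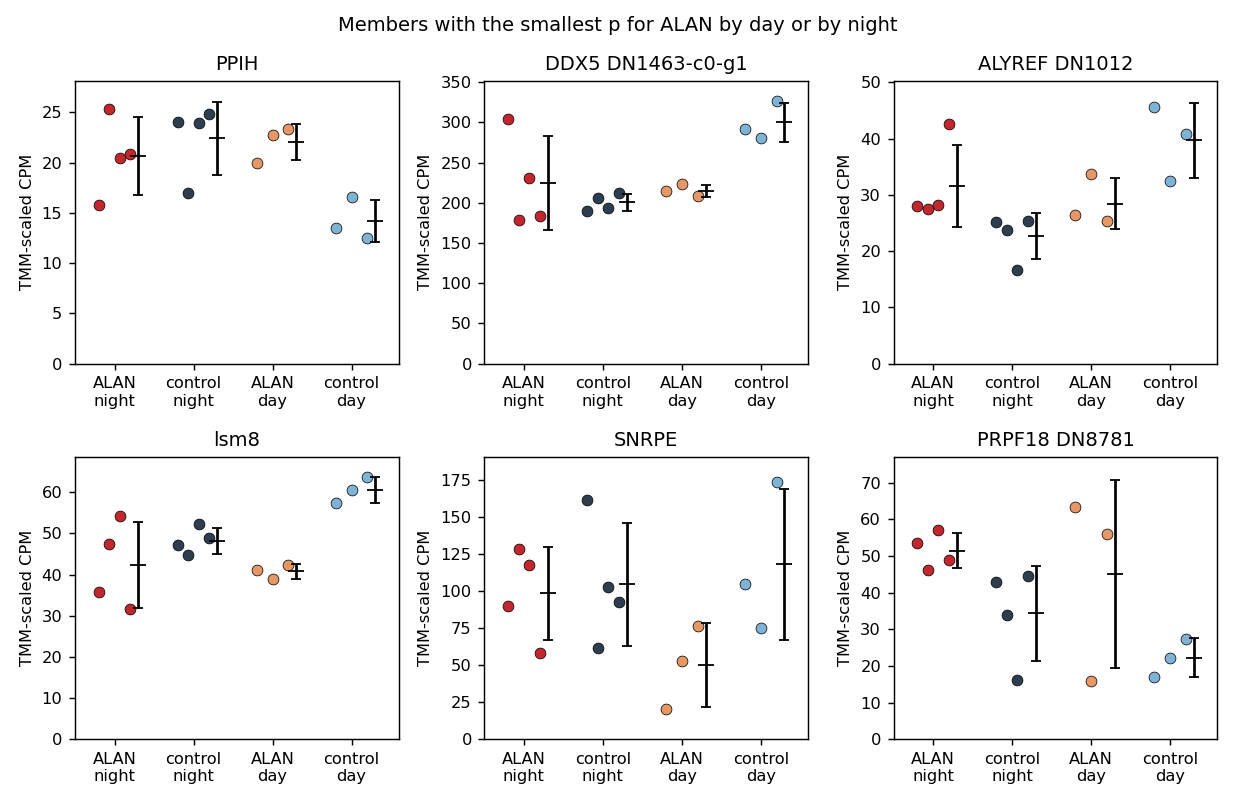
TMM-scaled CPM (linear axis from 0) of 6 members with small p-values for ALAN, in each brain (n = 4, 4, 3 and 3); the bar beside the points is the group mean with its SD. In PPIH, DDX5 DN1463-c0-g1 and lsm8 the 3 control day brains lie apart from the ALAN day brains, whereas SNRPE and PRPF18 DN8781 spread widely within groups.

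**Figure D4:**
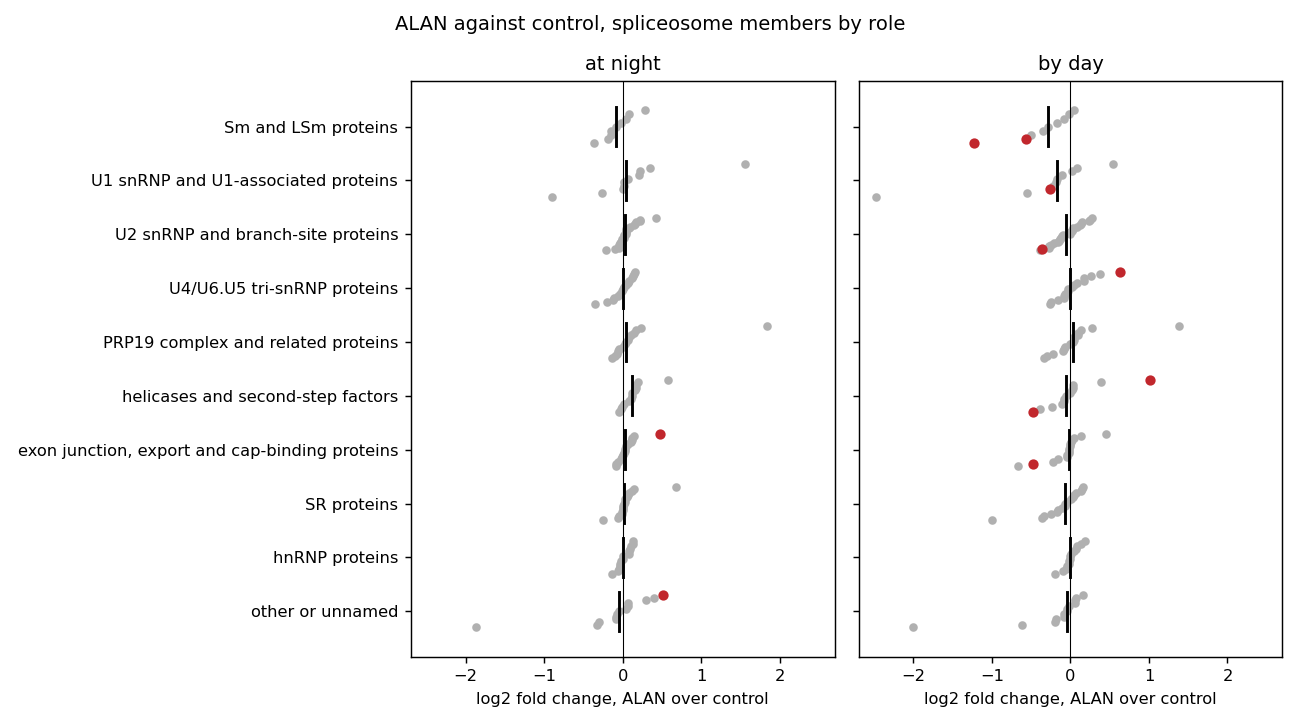
ALAN over control log2 fold change of the 147 tested members by role (one point per feature), at night (left) and by day (right); red points have an unadjusted p under 0.05, the vertical position within a role follows the rank, and the black bar is the median of the role. Most points lie near 0 in both panels, and the bar of the Sm and LSm proteins by day lies farthest from 0, at −0.28 (−0.085 without control day replicate 4).

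Averaged over night and day, ALAN again gave 0 called members by edgeR and by DESeq2, where edgeR called 0.00481% and DESeq2 0.744% of all features, with 4 members at an unadjusted p under 0.05 (2.72%, against 5.71% of all features). The smallest p belonged to lsm8 (log2 fold change −0.38 with SE 0.11 and edgeR adjusted p 0.454). Of the 4 members only PRPF18 DN8781 was higher under ALAN. Its log2 fold change was 0.80, and 0.36 with the counts of features named PRPF18 summed. The 95% interval lay within ±0.5 for 111 of 147 members and within ±1 for 138. HNRNPA1 had an ALAN over control log2 fold change of −0.024 with an interval of −0.14 to 0.097, HNRNPA3 −0.056 with −0.21 to 0.099, and RBMX 0.04 with −0.14 to 0.22.

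Whether ALAN altered the night to day difference was tested by the interaction. It called 0 members by edgeR and by DESeq2, where edgeR called 0% and DESeq2 0.271% of all features, with 5 members at an unadjusted p under 0.05 (3.40%, against 6.15% of all features). Among the 5 were ALYREF DN1012 (interaction log2 value 0.96, SE 0.28, with an edgeR adjusted p of 0.63), PPIH at −0.75, DDX5 DN1463-c0-g1 at 0.64 and SF3B4 at 0.51. In PPIH the night over day log2 fold change was −0.094 under ALAN and 0.66 in control fish. In DDX5 DN1463-c0-g1 it was 0.063 under ALAN and −0.58 in control fish. In ALYREF DN1012 it was 0.15 under ALAN and −0.80 in control fish. With the features of a name summed, the interaction value was 0.090 for ALYREF and 0.26 for DDX5, and the night over day value in control fish −0.075 for ALYREF and −0.34 for DDX5. The control night to day comparison, the day comparison of ALAN with control and the interaction share the 3 control day brains. The interaction values of the called hnRNP genes were small beside their errors, at 0.085 (SE 0.16) for RBMX, 0.08 (SE 0.14) for HNRNPA3 and −0.053 (SE 0.11) for HNRNPA1. Intervals of the interaction were wider, within ±0.5 for 45 of 147 members.

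The members were also summed within each library. The summed level of the 147 tested members was 14069 ± 557 CPM in ALAN night brains (SD, n = 4), 14006 ± 452 CPM in control night brains (SD, n = 4), 14584 ± 580 CPM in ALAN day brains (SD, n = 3) and 15089 ± 638 CPM in control day brains (SD, n = 3). The median deviation of the members from their own mean over all brains ranged from −0.031 to 0.072 (log2) in ALAN night brains, from −0.058 to 0.014 in control night brains, from −0.036 to 0.085 in ALAN day brains and from 0.028 to 0.11 in control day brains. All control day brains were above 0. Their range also held the highest ALAN day brain, replicate 2, which had the lowest TMM factor, and ALAN night replicate 1, at 0.072.

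**Figure D5:**
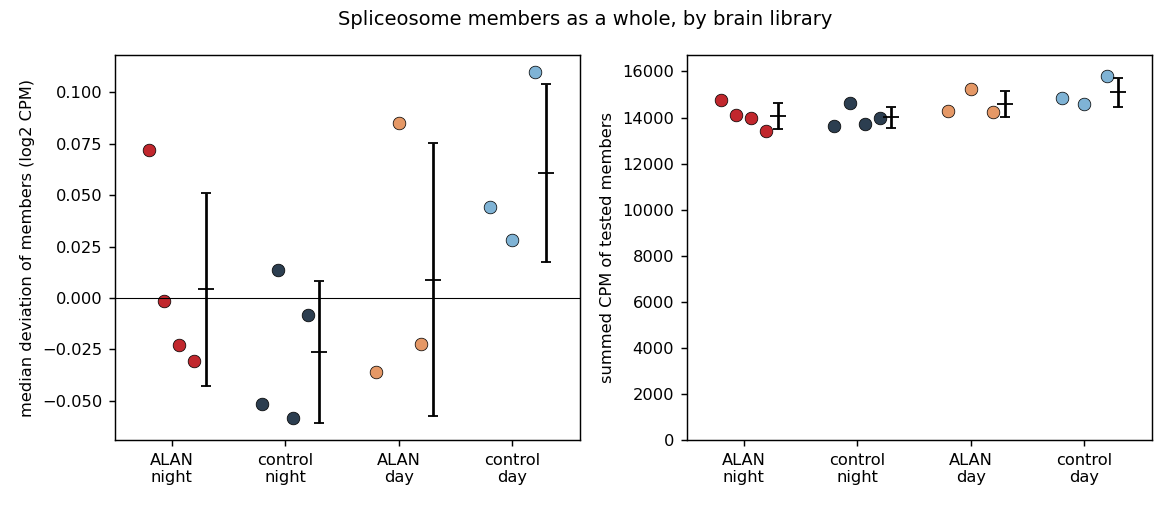
Left, median deviation of the 147 tested members from their mean log2 CPM over all brains; right, summed CPM of the members (axis from 0); points are brains (n = 4, 4, 3 and 3), and the bar beside them is the group mean with its SD. The sums lie between 13405 and 15812 CPM, and the 3 control day brains are all above 0 in the left plot, as is the highest brain of each other group.

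Features that share a gene name did not always move together. Of the 30 names with at least 2 tested features, all features had the same sign of the night over day difference in 19 names and opposite signs in 11. The 2 features of DDX5, which stand in the same assembly component, differed by day: DDX5 DN1463-c0-g2 had 447, 537 and 452 CPM in ALAN day brains and 507, 487 and 548 CPM in control day brains, which overlapped, whereas DDX5 DN1463-c0-g1 was apart in the same brains. ALYREF DN642 had an ALAN over control log2 fold change at night of 0.023 with an interval of −0.18 to 0.22, against 0.48 for ALYREF DN1012.

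Members were also grouped by protein domain. RNA recognition motifs were annotated in 50 members, of which 49 were tested, and these held the 3 features called lower at night, against 2.11% of all features, with 29 log2 fold changes below 0 and 20 above. The 17 members with a DEAD or DEAH helicase domain held 0 calls, against 4.34% of all features, with 2 at an unadjusted p under 0.05 (17.7% of all features). Of these 17, 13 were below 0 and 4 above in the night over day difference over both treatments, where 48.2% of all features were below 0.

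Splicing genes outside the pathway label were also read, in the main fit only. Whether their calls hold under the alternative analyses was not tested. Of 16 kinases of splicing factors 1 was called in the night over day comparison over both treatments, SRPK2, which phosphorylates SR proteins (log2 fold change −0.24 with SE 0.061 and edgeR adjusted p 0.0384). Of 53 features of regulators that steer splicing by tissue 3 were called in that comparison, in which 4.34% of all features were called, so these small counts are read as values of the genes and not as a result about the lists. QKI, a regulator prominent in glia, rose at night (log2 fold change 0.34 with SE 0.079 and edgeR adjusted p 0.0237), and 2 features named KHDRBS1 (Sam68) fell, with log2 fold changes of −0.25 and −0.26 and adjusted p of 0.0482 and 0.0378. TARDBP (TDP-43) was called lower at night in control fish (log2 fold change −0.40 with SE 0.093 and edgeR adjusted p 0.041) and stood at −0.082 under ALAN, with an interaction value of 0.32 (adjusted p 0.749). None of the 19 snRNP assembly features was called by edgeR in any comparison, with 3 at an unadjusted p under 0.05 in the night over day comparison, where 17.7% of all features were. Between ALAN and control, none of the features of these 3 lists was called by edgeR at night, with 1 at an unadjusted p under 0.05 (4.61% of all features), or by day, with 3 (6.92% of all features).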

How the data were processed

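Messenger RNA of whole brains was sequenced as paired reads of 150 bases. Per the labels' protocols the 14 libraries of the count table are non-stranded and carry molecular identifiers of 9 bases, and 3 further stranded libraries, made for the assembly, have no column in it and were not analysed here. The submitters' processing notes name Trimmomatic 0.39, RSEM and Bowtie2, with no roles. No source used here says whether identifiers were collapsed, so errors cover the spread of reads and brains. The count table deposited by the authors holds expected counts (estimated numbers that need not be whole, 96.0% of them not whole) for 21805 genes of a de novo Trinity assembly, per the file headers. Names, pathways and the bit score of the best match come from the annotation deposited by the authors (per the file headers an output of emapper 2.1.7), which lists 79921 assembled genes, 559 with the spliceosome pathway. Non-stranded counts cannot tell a gene from an antisense partner. No genome was used, and no chromosomal positions are given.

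Expected counts were rounded. The filterByExpr function of edgeR 4.0.16, applied by group (minimum count 10, minimum total 15), removed 1023 features. After TMM scaling a quasi-likelihood model with 4 group means was fitted to the 14 libraries in R 4.3.3 (10 residual degrees of freedom, prior 3.55), and 7 contrasts were taken, each adjusted by Benjamini-Hochberg over the 20782 features with a threshold of 0.05. SE is the absolute log2 fold change over the square root of F, and 95% intervals use a t quantile of 2.15. Within-group SD and library medians use log2 CPM with a prior count of 2. The fit was tested on simulated counts with known changes. Alternatives were DESeq2 1.42.0, RLE factors, library totals, no low-count filter, only the groups compared, a replicate block, each brain left out in turn, counts summed by gene name, the excluded names kept, and members with a bit score of at least 200. No pair of libraries held near-identical counts (at most 3.48% of features equal).

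The members, the role lists, the marker lists and the tests were chosen with earlier results of these data known. Features were named where edgeR called them, where they had 1 of the 5 smallest p-values of a contrast, or where they had the most counts or the smallest night over day p of their role. SRSF4, SRSF3 DN133, srsf5 DN8601, RALY, HNRNPK DN1572, HNRNPM, HNRNPU, SF3B1 DN1745, PRPF8 and the features whose groups did not overlap were chosen after their values were seen. Lists for liver, muscle, photoreceptors, glia, neurons, pituitary and blood were read as markers of other cells; edgeR called 2 liver, 2 muscle, 1 glial and 1 neuronal feature and 0 of the others in the night over day comparison over both treatments. Pituitary markers summed to 76.8 to 1434 CPM and blood markers to 999.8 to 6050 CPM over the 14 libraries.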

Additional observations from a re-analysis of the deposited data

Results flagged for a closer look

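Among 60 groups of 4 night brains checked, 5 held a brain far from the other 3; chance gives about 1 in 20 such groups. The groups checked did not cover every feature described above. The feature srsf5 DN8601 was not among them, although its control night replicate 1 had 113 CPM, below the other control night brains at 193 to 198 CPM. ALYREF DN1012 had 42.5 CPM in ALAN night replicate 4, above the other ALAN night brains at 27.5 to 28.3 CPM. HNRNPK DN9042 had 59.1 CPM in the same brain, below the others at 72.6 to 74.4 CPM. PPIH had 17.0 CPM in control night replicate 2, below the others at 23.9 to 24.8 CPM. SLC30A7 had 37.8 CPM in ALAN night replicate 2, above the other 3 ALAN night brains. SNRPC had 128 CPM in ALAN night replicate 3, likewise above the other 3.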

How the results depend on the processing

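Of 316 values that answer a comparison under the alternatives, 297 kept their direction and side of the threshold or moved by less than the spread. The comparisons of ALAN with control at night, by day and over both times, and the interaction, gave 0 called members under every alternative run. For night against day over both treatments the 3 calls became 8 with DESeq2, 1 with library totals in place of TMM and 0 with the replicate block, and ran from 1 to 5 with a brain left out. In control fish the 0 calls became 6 with DESeq2, 1 with library totals (ALYREF DN1012) and 1 with only the groups compared (DDX5 DN1463-c0-g1), and ran from 0 to 1 with a brain left out. Under ALAN DESeq2 called 1. The cause was not tested. Library totals moved the member median log2 fold change to 0.0995 for ALAN over control at night, to 0.105 for night over day under ALAN, to 0.177 for the interaction and to 0.0204 for night over day over both treatments. The medians of all features moved along, to 0.0711, 0.106, 0.0736 and 0.0676. With a brain left out, the member median for ALAN over control by day ran from −0.0928 to −0.0257.

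No pairing of the brains by replicate number was seen. Deviations of same-numbered brains of different groups correlated between −0.167 and 0.103 (18 pairs), and 2 of 14 libraries correlated best with their own number. The check used only the replicate numbers in the sample titles, so it cannot tell whether brains are paired in another way or share a colony. With the replicate block RBMX, HNRNPA3 and HNRNPA1 had adjusted p of 0.0575, 0.0593 and 0.0744.

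Among named features 26 values changed sign, all in night over day differences near 0 over both treatments. With a brain left out ALYREF DN642 ran from −0.0290 to 0.0287, CWC15 from −0.0286 to 0.0342, RBM25 DN1844 from −0.0558 to 0.109, SRSF5 DN733 from −0.0614 to 0.120 and ZMAT2 from −0.0583 to 0.0652. ALYREF DN642 was 0.0568 with library totals, CWC15 −0.00287 with the block, and ZMAT2 −0.000161 with RLE factors and −8.42e-05 with DESeq2. Depth limits members under 10 CPM, of which 13 were tested.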
